A study of Mus musculus with 8 samples.

Results

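Basement membranes are thin sheets of matrix that surround every muscle fibre and enclose the muscle stem cell against it. The transcripts of 10 of their non-collagenous parts were followed here in activated muscle stem cells (ASCs) with and without mitofusin 2, the outer membrane protein that fuses mitochondria. The 10 genes were picked by name as rows of the deposited table, and all 10 were found among its 18877 gene symbols. They were the laminin alpha chains Lama2, Lama4 and Lama5, the beta chains Lamb1 and Lamb2, the gamma chain Lamc1, the nidogens Nid1 and Nid2, perlecan (Hspg2) and agrin (Agrn). All 10 passed the minimum of a mean of 10 normalized reads, so 10 of the 11754 genes tested are members.

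A laminin is a trimer of 1 alpha, 1 beta and 1 gamma chain that polymerizes on the cell surface. Nidogens bridge the laminin sheet to the collagen IV network, and the heparan sulfate proteoglycans perlecan and agrin are bound into the same sheet. Muscle cells hold on to laminins, perlecan and agrin through dystroglycan and through integrins of the beta-1 class, and loss of the Lama2 chain is a known cause of congenital muscular dystrophy.

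RNA was sequenced from ASCs of 4 wild-type and 4 mfn2-/- libraries. Mice of both groups carried a mito-Dendra2 allele switched on through Pax7-Cre(ERT2), and the mfn2-/- adults also carried a floxed Mfn2 allele deleted by the same driver, so that only cells that expressed Pax7 and their progeny lost the gene. Tamoxifen was given at 75 mg/kg on 5 days, the tibialis anterior muscle was injured with 50 uL of 1.2% BaCl2, and living CD34-, Dendra2+ cells were sorted 2 days after injury. The labels name no animal for a library, so p-values measure the spread between libraries only.

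Libraries held 1880464 to 7508215 reads on genes, and the members were covered by 60 reads (Lama4 in mfn2-/- replicate 4) to 25521 reads (Hspg2 in wild-type replicate 4). Mfn2 itself was 202 to 245 normalized reads in the wild-type and 104 to 172 in mfn2-/- libraries (log2 change -0.88, standard error 0.30, limma adjusted p 0.0848). The groups did not overlap, but the targeted gene did not pass the test. Cd34, whose surface product the sort selected against, was read at 1643 ± 260 normalized reads in the wild-type and 454 ± 164 in mfn2-/- libraries. It thus differed between the groups (log2 change -1.90, standard error 0.24, limma adjusted p 0.000242). The stem cell marker Pax7 was present throughout, at 582 to 803 normalized reads over both groups. The library of mfn2-/- replicate 4 stood apart, with 9646 genes detected against 12613 to 15270 in the other libraries. Reads of 4 Y-linked genes were present in 4 libraries (wild-type replicates 3 and 4, mfn2-/- replicates 1 and 2) and at 0 in the other 4, which gives 2 libraries of each kind in each group.

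Transcripts of the laminin, nidogen and perlecan core of the basement membrane were lower in mfn2-/- ASCs, while agrin and the alpha-5 chain were not called. Of the 10 members, 8 fell and 0 rose at an adjusted p under 0.05 (limma on log2(normalized reads + 1)). Over all genes tested 10.4% were called, 6.36% lower and 3.99% higher. No member had an unadjusted p under 0.05 on the higher side, and edgeR and DESeq2 on the recovered reads also called 8 lower and 0 higher. The median log2 change was -1.76 over the members and -0.16 over all genes tested. For the same 8 genes every mfn2-/- value lay under every wild-type value. Of all genes tested 19.5% had no overlap between the groups, 12.2% with mfn2-/- libraries lower and 7.36% with them higher. Summed, the members made up 1.06% ± 0.08 of all normalized reads of a wild-type library and 0.30% ± 0.01 of those of an mfn2-/- library (SD, n = 4).

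**Figure D1:**
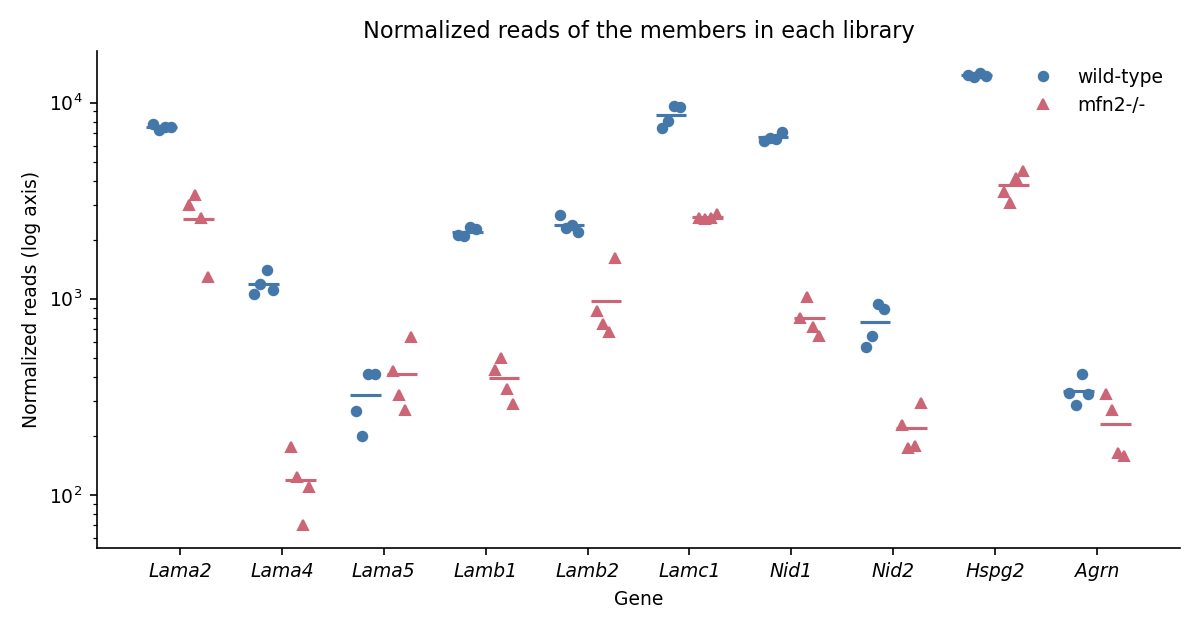
Normalized reads of the 10 members on a log axis, with 1 point per library (circles wild-type, triangles mfn2-/-, n = 4 each) and a bar at each group mean. For 8 genes all triangles lie below all circles, and for Lama5 and Agrn the groups overlap.

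Lama2 encodes the alpha chain of merosin, the chief laminin of mature muscle fibres (chromosome 10, 26980036 to 27619758, minus strand, GRCm38). It measured 7748, 7223, 7467 and 7460.4 normalized reads in wild-type replicates 1 to 4 and 3004, 3373, 2567 and 1290.1 in the mfn2-/- replicates. The coefficient of variation (SD over mean) was 2.88% in the wild-type group, whereas mfn2-/- replicate 4 was far below the other mfn2-/- libraries. The mean fell from 7475 ± 215 to 2558 ± 908, a log2 change of -1.63 (standard error 0.26, limma adjusted p 0.00148).

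Lama4 encodes a shorter alpha chain that lacks the polymerizing arm and is known from blood vessels and developing muscle (chromosome 10, 38965515 to 39110188, plus strand). It had the largest fall of the 10. Wild-type libraries held 1053, 1189, 1406 and 1114 normalized reads and mfn2-/- libraries 175, 124, 70.0 and 110.0. All mfn2-/- values lay far under the lowest wild-type value, and the wild-type mean was 9.95-fold higher (log2 change -3.37, standard error 0.28, limma adjusted p 4.96e-06).

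Lama5, the alpha chain of many epithelial and embryonic basement membranes, went the other way in its mean without passing the test (chromosome 2, 180176373 to 180225859, minus strand). Wild-type libraries held 266, 200.1, 412 and 413 normalized reads and mfn2-/- libraries 429, 323, 271 and 636. The groups overlapped broadly. The log2 change was 0.35 with a 95% interval from -0.35 to 1.04 (limma adjusted p 0.544), so neither a small fall nor a 2-fold rise is excluded at this spread. The highest value was that of mfn2-/- replicate 4, and without that library the change was 0.12.

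**Figure D2:**
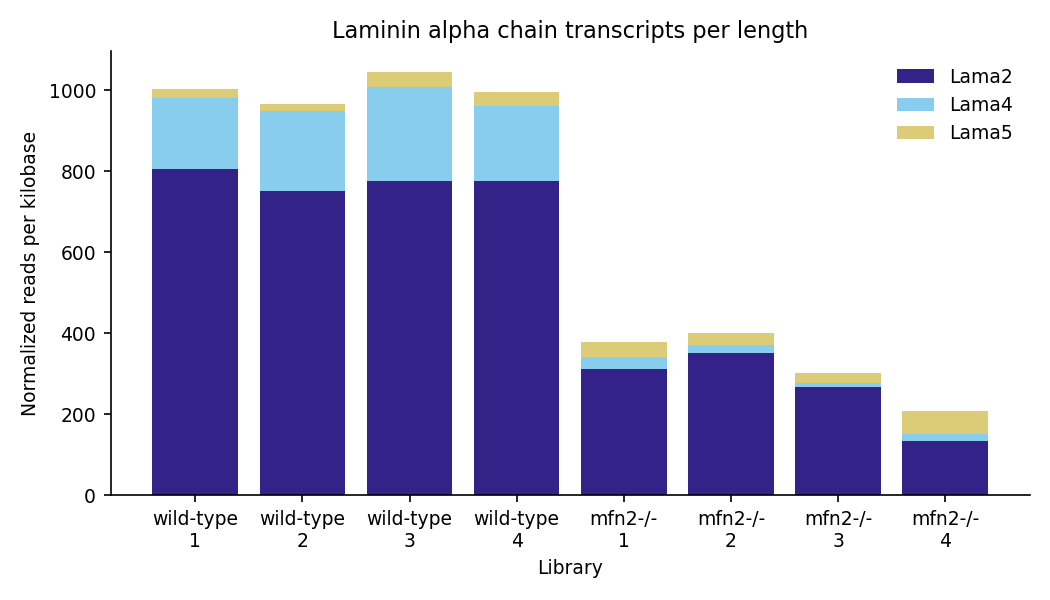
Normalized reads per kilobase of the longest annotated transcript for Lama2, Lama4 and Lama5, stacked for each of the 8 libraries. Lama2 makes up most of every bar, the Lama4 part shrinks from wild-type to mfn2-/- libraries, and the Lama5 part is widest in mfn2-/- replicate 4.

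The beta chains both fell, by unequal amounts. Lamb1, the widespread beta chain (chromosome 12, 31265234 to 31329644, plus strand), held 2115, 2092, 2314 and 2268 normalized reads in the wild-type and 435, 499, 346 and 289.5 in mfn2-/- libraries. The drop was 5.60-fold between means, with a log2 change of -2.51 (standard error 0.20, limma adjusted p 4.02e-06). Lamb2, which is concentrated at the neuromuscular synapse (chromosome 9, 108479736 to 108490530, plus strand), held 2675, 2286, 2378 and 2184 in the wild-type and 870.1, 744, 673 and 1603 in mfn2-/- libraries. Here mfn2-/- replicate 4 was the high one, yet still below every wild-type value. The log2 change of Lamb2 was -1.38 (standard error 0.25, limma adjusted p 0.00338), the smallest among the 8 genes called. Its call was lost without the intensity trend (adjusted p 0.0586).

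Lamc1 encodes the gamma chain that most laminins share and that carries the nidogen binding site (chromosome 1, 153218922 to 153332786, minus strand). It measured 7414, 8014, 9602 and 9516 normalized reads in the wild-type and 2569.7, 2539, 2583 and 2710.3 in mfn2-/- libraries. The mfn2-/- values were the tightest of any member in that group, with a coefficient of variation of 2.90%, and mfn2-/- replicate 4 did not stand out. The wild-type mean was 3.32-fold higher (log2 change -1.72, standard error 0.17, limma adjusted p 3.04e-05).

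The nidogens both fell as well. Nid1 (chromosome 13, 13437551 to 13512269, plus strand) held 6345, 6569.6, 6547 and 7112 normalized reads in the wild-type and 794, 1019, 718 and 649 in mfn2-/- libraries. With 8.36-fold between means and little spread in either group it had the smallest adjusted p of the members (log2 change -3.08, standard error 0.18, limma adjusted p 1.73e-07). Nid2 (chromosome 14, 19751265 to 19811787, plus strand) was the weaker of the pair, with 566, 645, 938 and 887 in the wild-type and 227, 174, 178 and 293 in mfn2-/- libraries. Its log2 change was -1.80 (standard error 0.26, limma adjusted p 0.000704). Nid2 overlaps Rtraf on the opposite strand, listed in the table under its older name 2700060E02Rik at 67.3 ± 10.3 and 50.0 ± 43.8 normalized reads, and whether reads were counted by strand is not given in the sources used here.

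Perlecan was the member with the most reads and agrin was among the weakest. Hspg2 (chromosome 4, 137468769 to 137570630, plus strand) held 13821, 13554, 14084 and 13634 normalized reads in the wild-type and 3516, 3072, 4142 and 4475 in mfn2-/- libraries. Its wild-type values varied by only 1.71%, the least of the 10. The log2 change was -1.87 (standard error 0.19, limma adjusted p 3.15e-05). Agrn, whose nerve-derived form clusters acetylcholine receptors (chromosome 4, 156165290 to 156197488, minus strand), held 332, 286, 411 and 325 in the wild-type and 326, 270.2, 164 and 158 in mfn2-/- libraries. mfn2-/- replicates 1 and 2 lay at the wild-type level or just under it, and replicates 3 and 4 were lower. The log2 change was -0.62 with a 95% interval from -1.25 to 0.02 (limma adjusted p 0.214), so a fall by more than 2-fold remains within the interval. Counts per gene do not separate the splice forms of agrin.

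**Figure D3:**
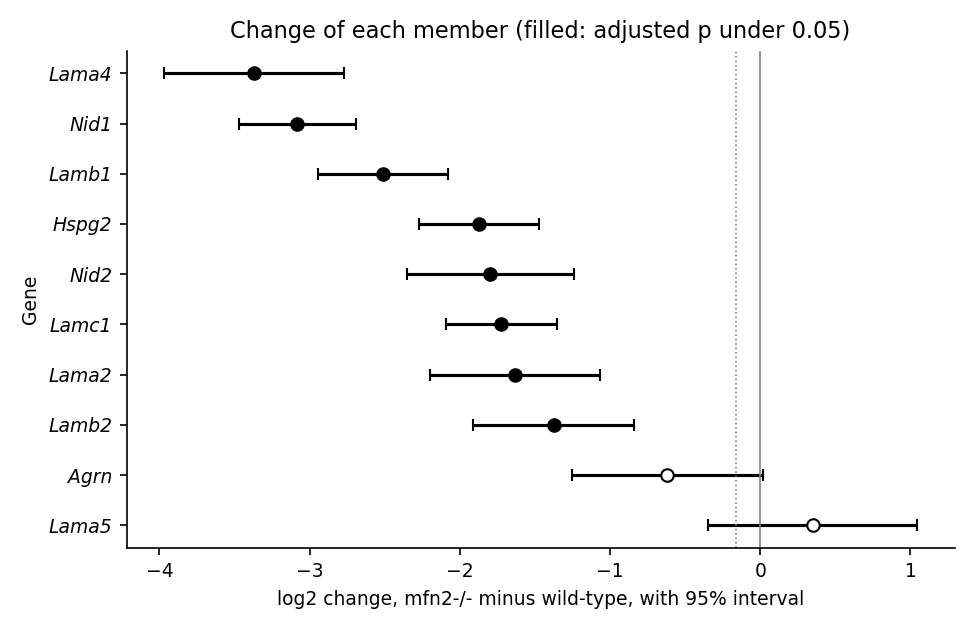
Log2 change of each member, mfn2-/- minus wild-type, with its 95% interval from limma (n = 4 per group). Filled points passed an adjusted p of 0.05, the dotted line is the median of all genes tested at -0.16, and only the intervals of Agrn and Lama5 reach 0.

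Promoters are shown for the members that fell furthest among those with an entry in the RefSeq-based table (Nid1, Lamb1), for the most abundant one (Hspg2) and for the pair that was not called (Lama5, Agrn). Each covers 250 bases before to 50 after the annotated start on GRCm38.p6 and is written 5′ to 3′ on the strand of the gene, with capitals for the GC box GGGCGG or its reverse complement. The windows are chr13:13437352-13437651 for Nid1, chr12:31265043-31265342 for Lamb1, chr4:137468553-137468852 for Hspg2, chr2:180225810-180226109 for Lama5 and chr4:156197439-156197738 for the upstream start of Agrn.
Nid1: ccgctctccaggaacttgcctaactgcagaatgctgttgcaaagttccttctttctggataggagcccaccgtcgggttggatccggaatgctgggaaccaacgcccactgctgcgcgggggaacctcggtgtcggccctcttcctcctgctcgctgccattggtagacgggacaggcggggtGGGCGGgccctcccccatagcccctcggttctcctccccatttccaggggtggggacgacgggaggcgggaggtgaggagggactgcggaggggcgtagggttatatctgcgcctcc
Lamb1: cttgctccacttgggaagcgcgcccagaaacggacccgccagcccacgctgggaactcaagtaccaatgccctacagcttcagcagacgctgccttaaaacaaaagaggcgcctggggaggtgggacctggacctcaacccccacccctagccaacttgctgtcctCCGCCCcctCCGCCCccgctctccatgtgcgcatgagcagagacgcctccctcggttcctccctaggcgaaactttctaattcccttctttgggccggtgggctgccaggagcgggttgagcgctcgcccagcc
Hspg2: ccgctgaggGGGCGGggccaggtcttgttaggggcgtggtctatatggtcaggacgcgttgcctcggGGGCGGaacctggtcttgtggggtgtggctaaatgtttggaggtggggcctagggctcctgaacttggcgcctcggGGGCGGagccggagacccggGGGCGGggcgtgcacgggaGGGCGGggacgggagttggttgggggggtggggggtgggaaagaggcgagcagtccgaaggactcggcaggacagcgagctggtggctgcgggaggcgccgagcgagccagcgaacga
Lama5: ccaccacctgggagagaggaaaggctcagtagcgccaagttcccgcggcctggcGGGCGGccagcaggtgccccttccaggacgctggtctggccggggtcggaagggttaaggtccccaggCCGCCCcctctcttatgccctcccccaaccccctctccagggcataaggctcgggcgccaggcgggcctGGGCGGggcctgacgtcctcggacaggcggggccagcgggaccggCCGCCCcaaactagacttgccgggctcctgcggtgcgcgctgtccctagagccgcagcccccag
Agrn: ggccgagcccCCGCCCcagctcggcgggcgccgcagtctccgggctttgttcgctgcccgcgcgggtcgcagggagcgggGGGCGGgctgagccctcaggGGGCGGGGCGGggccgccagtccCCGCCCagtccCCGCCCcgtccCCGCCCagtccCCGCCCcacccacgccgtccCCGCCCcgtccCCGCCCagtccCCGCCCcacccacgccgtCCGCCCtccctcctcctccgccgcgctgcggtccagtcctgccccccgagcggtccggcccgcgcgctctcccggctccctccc
GC boxes numbered 1 in Nid1, 2 in Lamb1, 5 in Hspg2, 4 in Lama5 and 12 in Agrn, with overlapping copies counted. The GC content of these 5 ran from 63.7% in Lamb1 to 83.3% in Agrn, against a median of 52.7% over 32851 promoters of the table. The promoters not shown had 44.0% and 0 GC boxes in Lamb2, 50.3% and 1 in Lama2, and 61.3% and 2 at the other start of Agrn. Of the 8 promoters of 7 members in the table, 7 held a GC box, as did 35.7% of all promoters. The E-box CANNTG, the motif of MyoD and related factors, was in 5 of the 8 and in 72.3% of all promoters. The hypoxia response core ACGTG was in 0 of the 8 and in 19.6% of all, and CATTCC, the motif of TEAD factors, was in 1 of the 8 (Nid1) and in 14.7% of all. These are matches of letters on both strands in short windows and say nothing of the factors. Lama4, Lamc1 and Nid2 had no entry.

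Levels of different genes were compared per kilobase of the longest annotated transcript. In wild-type ASCs Lamc1 (1133 ± 143 normalized reads per kilobase, SD, n = 4) and Nid1 (1091 ± 53.9) had the highest means with overlapping values. Hspg2 (971 ± 16.6) lay below every value of Nid1 but overlapped Lamc1, and Lama2 (777 ± 22.4) came next with no overlap on either side. Lamb2 (423 ± 37.6) and Lamb1 (379.9 ± 19.1) overlapped, as did Lama4 (197 ± 25.5) and Nid2 (156 ± 37.2). Agrn (39.3 ± 6.07) and Lama5 (28.3 ± 9.39) came last and overlapped too. In mfn2-/- ASCs Lamc1 again had the highest mean (341 ± 9.90), above every value of Hspg2 but overlapping Lama2, which reached 351 in mfn2-/- replicate 2. Hspg2 (268 ± 44.3), Lama2 (266 ± 94.4) and Lamb2 (173 ± 76.1) then followed with overlapping values. Nid1 came after these in the mean (131 ± 26.4), below every value of Hspg2 but overlapping Lama2 and Lamb2. Lama4 was last (19.8 ± 7.15), below Lama5 (36.4 ± 14.2) and Agrn (26.6 ± 9.60) in the mean but with values that overlapped those of both.

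In wild-type libraries the summed alpha chains (1003 ± 32.9 normalized reads per kilobase) and the gamma chain (1133 ± 143) were close, and the beta chains were somewhat lower (803 ± 34.5). The mfn2-/- libraries held 322 ± 86.8 for the alpha chains, 241 ± 66.5 for the beta chains and 341 ± 9.90 for the gamma chain. The means were thus lower for all 3 kinds of chain. Per length, Lama4 was 19.6% ± 2.15 of the 3 alpha transcripts in the wild-type and 6.33% ± 2.25 in mfn2-/- libraries, and Lama5 was 2.81% ± 0.88 and 12.9% ± 9.33. The Lama5 share was 26.8% in mfn2-/- replicate 4, and without that library the mfn2-/- mean was 8.30% ± 1.46 (SD, n = 3). Lama2 stayed the main alpha transcript, at 77.6% ± 2.48 and 80.7% ± 11.2. Lamb2 made up 52.6% ± 2.89 of the beta transcripts in the wild-type and 69.9% ± 10.6 in mfn2-/- libraries. Nid1 made up 87.6% ± 2.36 and 74.1% ± 7.72 of the nidogen transcripts.

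Whether members of the same kind changed to the same degree was tested by the log2 ratio of their normalized reads within a library. With 1 added to each value, the scaling of libraries has almost no bearing on this ratio. All 5 ratios differed between the groups without overlap, each at the smallest p that 4 against 4 libraries allow (two-sided exact permutation p = 0.0286, also 0.0286 after adjustment over the 5). The pairs were chosen with earlier results of these data known. How many other gene pairs separate the groups in this way was not counted, and of single genes tested 19.5% did. Lamb2 over Lamb1 was 0.11 ± 0.17 in the wild-type and 1.25 ± 0.83 in mfn2-/- libraries, a difference of 1.14 that was 0.73 without mfn2-/- replicate 4. Lama4 over Lama2 went from -2.66 ± 0.20 to -4.39 ± 0.72, a difference of -1.73. The remaining 3 ratios were all higher in mfn2-/- libraries. Lama5 over Lama2 differed by 1.98, with mfn2-/- replicate 4 highest at -1.02 and 1.45 without it. Nid2 over Nid1 differed by 1.28, and Agrn over Hspg2 by 1.25. In the last ratio mfn2-/- replicates 1 and 2 (-3.43 and -3.50) were well above replicates 3 and 4 (-4.65 and -4.82). Leaving out any 1 wild-type library gave adjusted exact permutation p-values of 0.0571 to 0.0857, with differences of 1.08 to 1.21 for Lamb2 over Lamb1, -1.81 to -1.65 for Lama4 over Lama2, 1.79 to 2.12 for Lama5 over Lama2, 1.18 to 1.40 for Nid2 over Nid1 and 1.19 to 1.34 for Agrn over Hspg2. Leaving out any 1 mfn2-/- library gave 0.0286 for all 5 ratios, so the test on 3 against 4 libraries can reach that value. None of the 5 ratios therefore passed without any 1 wild-type library, although the differences kept their sign.

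**Figure D4:**
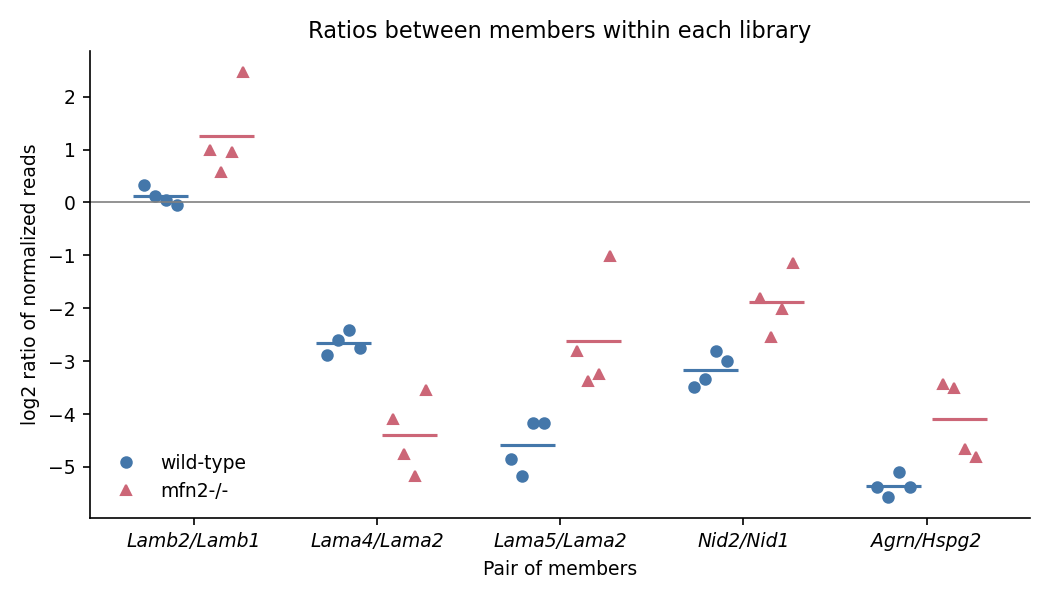
Log2 ratio of normalized reads between pairs of members within each library (circles wild-type, triangles mfn2-/-, n = 4 each), with a bar at each group mean. For every pair the triangles lie wholly on one side of the circles, below for Lama4 over Lama2 and above for the other 4 pairs.

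The size of the changes was also taken within the libraries with and without Y-linked reads, with 2 libraries per group in each. Nid1 differed by -2.92 with and -3.24 without such reads on the log2 scale, Lama4 by -3.08 and -3.66, Lamb1 by -2.30 and -2.73, Hspg2 by -2.08 and -1.67, and Lamc1 by -1.90 and -1.54. Lama2 differed by -1.23 and -2.04, Nid2 by -2.19 and -1.40, and Lamb2 by -1.50 and -1.25. Since the groups do not overlap for these 8 genes, their direction in each kind was fixed beforehand, and only the sizes are described. Within the 4 libraries without Y-linked reads 6 of these 8 passed, since Lamb2 (limma adjusted p 0.217) and Nid2 (0.160) did not. The mean of Lama5 was lower by 0.15 with and higher by 0.85 without such reads, and Agrn differed by -0.30 and -0.94. A test of the difference between the kinds, chosen after the data had been seen, called 0 of the 10 members (limma interaction, lowest adjusted p 0.334 and 3 with an unadjusted p under 0.05) and 1.47% of all genes tested.

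Markers of connective tissue cells, which also make basement membrane proteins, moved with the groups. Of 13 fibroadipogenic markers tested 11 were called lower and 0 higher, and their summed level was 194723 to 253429 normalized reads in the wild-type and 5303 to 9804 in mfn2-/- libraries. All 10 tenocyte markers, which belong to tendon cells, were called lower, with sums of 40809 to 65595 and 306 to 435. Pdgfra went from 2531 ± 695 to 31.9 ± 26.5 normalized reads, Tnmd from 2841 ± 1429 to 6.78 ± 9.43 and Chad from 455 ± 62.9 to 0.20 ± 0.40. Other called markers kept higher levels in mfn2-/- libraries, such as Gsn (5295 ± 1318) and Col3a1 (1350 ± 785). The 2 fibroadipogenic markers not called were Dpt (342 ± 90.5 to 153 ± 116) and Ly6a. The mean of Ly6a was higher in mfn2-/- libraries (11.6 ± 11.4 to 34.4 ± 18.0). Cells were sorted as Dendra2+ and CD34-, with Dendra2 switched on through Pax7, and the purity of the sort was not tested. The part of connective tissue cells in the members' falls was not tested either. In bulk RNA fewer cells of a type cannot be told apart from less RNA per cell. The median log2 change was -6.46 for fibroadipogenic and -8.50 for tenocyte markers, while the members' changes ran from -3.37 to 0.35. Mural cell markers, of the cells around vessels, had 3 of 8 called lower (Pdgfrb, Cspg4, Mcam) and 1 higher (Abcc9), with sums of 4181 to 5307 and 2575 to 4221. Glia markers had 2 of 6 called lower, with sums of 735 to 1091 and 278 to 474. Of 12 endothelial markers limma called 0, with 0 at an unadjusted p under 0.05 and 0 by edgeR or DESeq2, and sums of 1365 to 2140 in wild-type overlapped 1682 to 2580 in mfn2-/- libraries. Of 4 macrophage markers tested 0 were called by limma, edgeR or DESeq2, with 0 at an unadjusted p under 0.05 and sums of 31.8 to 157 over all libraries. Myogenic markers had 3 of 9 called higher (Myod1, Des, Vcam1) and 0 lower by limma, while DESeq2 called 1 lower, and their sums were 9061 to 11901 and 17019 to 20335. Myofiber markers had 2 of 8 called higher (Myh4, Myh1) and 0 lower, with sums of 1023 to 2829 and 2674 to 3920. Beside these marker counts, 6.36% of all genes tested were called lower and 3.99% higher.

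Other basement membrane genes were called lower more often than higher, and about as many were not called. Of 32 genes on this list 29 were tested, and 13 were called lower, 1 higher and 15 not, with a median log2 change of -1.64. The shares over all genes tested were 6.36% lower and 3.99% higher. The most abundant was Sparc, a collagen-binding glycoprotein, at 31835 ± 4396 normalized reads in the wild-type and 2019 ± 318 in mfn2-/- ASCs (log2 change -3.98, limma adjusted p 3.50e-08). The collagen IV chains Col4a1 (-1.29, adjusted p 0.00568) and Col4a2 (-1.75, adjusted p 0.000281), which form the second network of the sheet, both fell. The change of Col4a2 was like those of Lamc1 and Lama2, and that of Col4a1 was smaller. Col15a1, a collagen of muscle and vessel basement membranes, fell by 4.15, and Col18a1 by 2.02. Smoc2, a calcium-binding relative of Sparc, fell by 8.45 and Pxdn, the peroxidase that cross-links collagen IV, by 2.02. Ntn4, a netrin that binds the short arms of laminins, was the one that rose, from 175 ± 52.2 to 428 ± 199 (log2 change 1.23, limma adjusted p 0.0434). The 3 most abundant genes that did not pass were Fbln2 (-1.14, adjusted p 0.0522), Lamc3 (-0.64, 0.725) and Frem1 (-1.19, 0.115).

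Among laminin chains outside the 10 members, Lama3 was weak and was not called. It measured 302 ± 59.0 and 181 ± 75.0 normalized reads (limma adjusted p 0.155). Lama1 (0 to 7.35) and Lamb3 (0 to 18.2) fell under the minimum and were at 0 in all 4 mfn2-/- libraries.

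Receptors of laminin and agrin were called in 5 of 14 cases, with 4 lower and 1 higher and a median log2 change of -1.06. The share called over all genes tested was 10.4%. Itgb1, the common partner of the laminin-binding integrins, went from 3390.0 ± 320.2 to 2130.0 ± 304 normalized reads (log2 change -0.68, limma adjusted p 0.0256). Itga2 (-4.50, adjusted p 0.0252), Lrp4, the agrin receptor (416 ± 149 to 114 ± 78.2 normalized reads, adjusted p 0.0085), and the heparan sulfate proteoglycan Sdc3 (-2.03, adjusted p 0.000603) were the others that fell. Sdc4, a syndecan of muscle stem cells, rose from 4271 ± 1529 to 17473 ± 3953 (log2 change 2.08, limma adjusted p 0.000317). Dag1, which encodes dystroglycan, Itga7 and Musk, the kinase that signals for agrin, were not called (-0.69, -0.87 and 0.79, with adjusted p of 0.115, 0.110 and 0.0714). The count ranged from 2 to 12 of 14 over the alternatives.

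**Figure D5:**
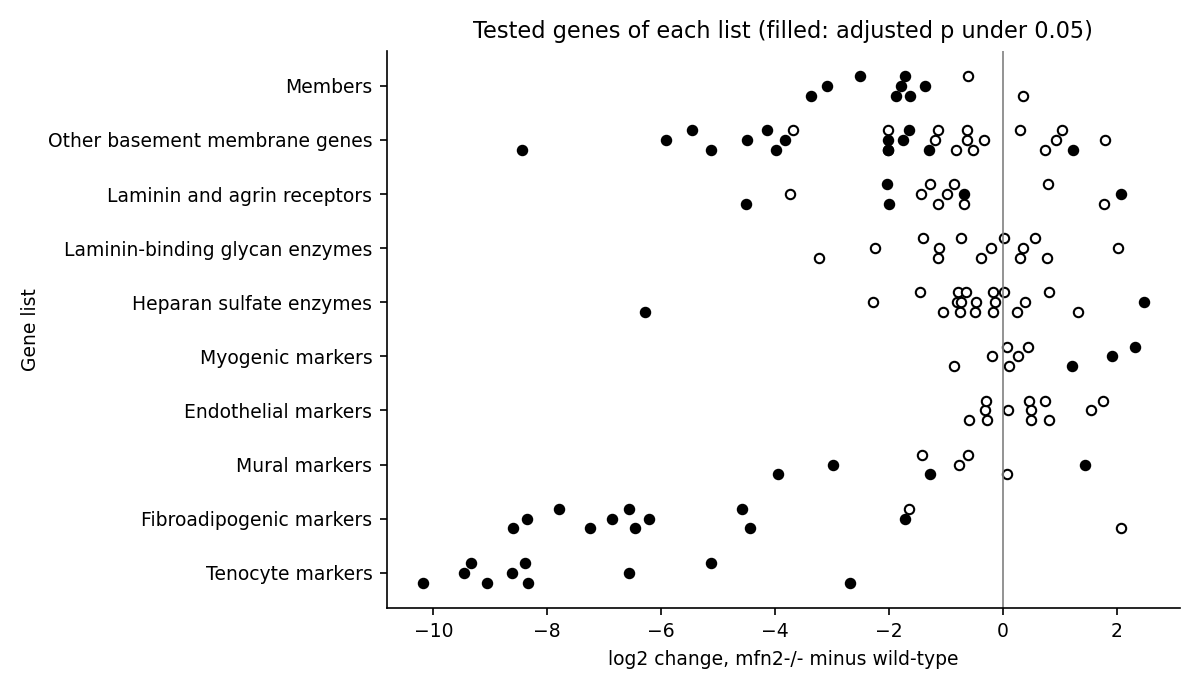
Log2 change, mfn2-/- minus wild-type, of every tested gene of the members and of 9 gene lists, with filled points past an adjusted p of 0.05 (limma, n = 4 per group). The members spread from -3.37 to 0.35, the tenocyte and most fibroadipogenic markers lie far to the left of them, and no enzyme of the laminin-binding glycan is filled.

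The enzymes that build the laminin-binding glycan of dystroglycan had 0 of 14 tested genes called by limma or edgeR, against 2 at an unadjusted p under 0.05 and 1 lower by DESeq2, with a median log2 change of -0.29. The 3 most abundant were Dpm1 (0.30), Pomgnt1 (0.03) and Tmem5 (-0.38). Enzymes that make or trim heparan sulfate, the sugar chain carried by perlecan and agrin, had 1 of 20 called higher and 1 lower, with a median of -0.48. Of all genes tested 10.4% were called, 3.99% higher and 6.36% lower. The heparan sulfate counts are near these shares. Hs3st3b1, a sulfotransferase, went from 75.5 ± 21.2 to 479 ± 287 normalized reads (log2 change 2.47, limma adjusted p 0.00338). Sulf2, an extracellular sulfatase, went from 407 ± 103 to 7.74 ± 7.98 (-6.28, adjusted p 0.000715), whereas its paralog Sulf1 did not pass (0.02, adjusted p 0.972). Ndst1 (0.38) and Glce (-0.18) were the other abundant enzymes that did not pass.

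Patterns most like each member were described by Pearson's r on log2(normalized reads + 1) over the 8 libraries against 5585 genes whose mean reached 100, with no test, since the points share libraries and the difference between groups. Nid1 was nearest to Col1a1, Mfap4 and Chad, with r of 0.997 or more. Lamc1 was nearest to Acan (0.999), Pappa2 and Col5a2, and Lamb1 to Col8a2 (0.999), Thbs2 and App. Hspg2 was nearest to Cilp, Comp and Dnm1, Lama4 to Angptl7, Col6a1 and D0H4S114, Lama2 to Abca9, Sorcs2 and Cxcl14, Nid2 to Fam198b, Postn and Rcn3, and Lamb2 to Plekhh2, Mrc2 and Klhl13. The pair that was not called had other neighbours, with U2af1l4, Zfand3 and Cdk16 for Lama5 (0.954 at most) and Birc6, Mtap1b and Meg3 for Agrn (0.981 at most). No member was among the 3 nearest genes of another.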

How the data were processed

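Stranded total RNA libraries were made from sorted ASCs with a low-input kit. The submitters' processing notes name Trim Galore, HISAT2, featureCounts, DESeq2 and the build mm9, and settings are not given in the sources used here. Each deposited value is a signal, a normalized read count per gene that the authors obtained by dividing the counts of each library by 1 size factor. In every column 100% of values were whole multiples of 1 step (tolerance 0.01), and reads were recovered by dividing by it. Numbers of reads behind a value speak of counting error only, since no molecular identifiers are named, and 95% intervals are limma's, from the spread between libraries.

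Genes with a mean of at least 10 were tested with limma 3.58.1 (R 4.3.3) on log2(value + 1). The variance followed a trend on mean level, no covariate entered, tests were two-sided, and p-values were adjusted by Benjamini-Hochberg over all 11754 genes at 0.05. The log2 change understates that of weak genes. Ratios were compared by exact permutation over the 70 arrangements. edgeR 4.0.16 and DESeq2 1.42.0 on recovered reads, other pseudocounts, filters and scalings, the replicate number as a block, library weights and single libraries left out were alternatives. Limma, edgeR and DESeq2 were also run on simulated counts with known changes, and the outcome is not given here. Positions and lengths are those of GENCODE M21 (GRCm38), since the table has none, and are not mm9 positions. Promoters come from RefSeq (GRCm38.p6). Python 3.11.15 was used for tables.

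The members, lists, ratios and naming rule were chosen with earlier results of these data known. All 10 members are named, then up to 8 called genes of each other list by level and the 3 most abundant that did not pass. The laminin chains beyond these were named after their values were seen, as were the marker genes. The interaction with Y-linked reads and the chain shares without single libraries were chosen once values were known. The replicate numbers do not pair the libraries. A result for 1 further gene is not reported here.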

Additional observations from a re-analysis of the deposited data

How the results depend on the processing

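Of the 23 alternatives fitted across all genes, 21 called 8 members lower, the fit without the intensity trend called 7 and the libraries without Y-linked reads 6, and none called a member higher. Lamb2 lost its call without the trend (log2 change -1.38, limma adjusted p 0.0586) and in the libraries without Y-linked reads (-1.25, 0.217), where Nid2 lost its call as well (-1.40, 0.160). Lama5 changed sign with library weights (-0.11) and in the libraries with Y-linked reads (-0.15), and was not called in any alternative. The causes were not tested. Scaling moved the median log2 change of all genes from -0.16 to -0.11 with equal totals, 0.04 with upper-quartile scaling and 0.13 with quantile normalization, and the 8 falls exceeded that shift.

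The number of genes called over the whole table was 1217 (469 higher, 748 lower). It was 3037 (1398 and 1639) with library weights, 633 without the trend (113 of them higher), 2502 (1178 and 1324) in the libraries with Y-linked reads and 177 (37 and 140) in those without. Upper-quartile scaling gave 844 higher and 632 lower. With single libraries left out it ran from 670, without wild-type replicate 3, to 1307, with 235 to 470 higher and 435 to 837 lower. Of the other basement membrane genes 14 were called, and 7 in the libraries without Y-linked reads. Of the receptors 5 were called, against 3 without the trend, 12 with library weights, 10 in the libraries with Y-linked reads, 2 in those without, and 3 to 7 with single libraries left out. The glycan enzymes had 1 call with a pseudocount of 10, with quantile normalization, with DESeq2 and in the libraries with Y-linked reads, 3 with library weights, and 0 to 1 with single libraries left out. The heparan sulfate enzymes had 2 calls, against 5 with library weights and 0 in the libraries without Y-linked reads. The cell type markers had 20 calls in the libraries without Y-linked reads.

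The ratio Lamb2 over Lamb1 differed by 0.79 in the libraries with Y-linked reads and by 1.48 in those without, Lama5 over Lama2 by 1.08 and 2.88, Nid2 over Nid1 by 0.73 and 1.84, and Agrn over Hspg2 by 1.78 and 0.73. With single libraries left out the differences ran from 0.73 to 1.36 for Lamb2 over Lamb1, -2.02 to -1.47 for Lama4 over Lama2, 1.45 to 2.24 for Lama5 over Lama2, 1.04 to 1.51 for Nid2 over Nid1 and 1.03 to 1.49 for Agrn over Hspg2. Adjusted exact permutation p-values were 0.0286 for every ratio when an mfn2-/- library was left out. They were 0.0571 to 0.0857 when a wild-type library was left out, so no ratio passed there, although the differences kept their sign.

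The replicate numbers do not mark pairs, since deviations of same-numbered libraries correlated at -0.11 to 0.04 and 1 of 8 libraries correlated best with its own number. The fit with the replicate block called 1043 genes and the same 8 members, and left the other basement membrane genes at 14, the receptors at 5, the glycan enzymes at 0, the heparan sulfate enzymes at 2 and the cell type markers at 32. Depth limits the weakest values, with 60 reads for Lama4 and 86 for Agrn in mfn2-/- replicate 4.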

Other observations

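Lamc3, a gamma chain that is no member, separated the libraries by Y-linked reads and not by genotype. It measured 346 to 614 normalized reads in the 4 libraries with Y-linked reads and 16.5 to 112 in the 4 without (log2 difference without minus with of -2.92 in a limma fit with genotype, adjusted p 0.0431). The gene was chosen after its values were seen. A term for Y-linked reads passed for 26 of 11754 genes (0.22%) and for 0 of the 10 members, and 4.46% of all genes tested did not overlap between the 2 kinds of library.

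In mfn2-/- replicate 4 the members did not move as one. Relative to the other mfn2-/- libraries it had the lowest Lama2 (1290.1 normalized reads), Lamb1 (289.5), Nid1 (649) and Agrn (158) and the highest Lama5 (636), Lamb2 (1603), Nid2 (293), Hspg2 (4475) and Lamc1 (2710.3).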
